A study of Sus scrofa with 8 samples.

Results

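CDK inhibitors and GADD45 proteins are small proteins through which cells slow or leave the division cycle. The genes examined here were chosen by symbol: CDKN1A, CDKN1B, CDKN1C, CDKN2A, CDKN2B, CDKN2C, GADD45A, GADD45B and GADD45G. Of these 9, 6 had a row with that symbol among the 25285 genes of the deposited expression table, each of them 1 row: CDKN1B, CDKN2A, CDKN2B, CDKN2C, GADD45B and GADD45G. CDKN1C and GADD45A had no row under their symbol and were not analysed here. CDKN1A had no row by symbol either. An Ensembl identifier table gave that name to ENSSSCG00000001565 (scaffold GL893630.2, 37127 to 44847), which was listed at 0 in 7 libraries and at 0.982 FPKM in differentiated male replicate 1, under the level needed for a test.

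RNA was sequenced from primary cells of pig skeletal muscle (Sus scrofa, strain LYD as the labels write it), grown in culture and collected either undifferentiated or differentiated. The protocol calls the cells MuSCs. There were 8 libraries, 2 for each sex in either state, and no genetic change or drug is named for any group. The labels give no age, no time in differentiation and no statement that replicates were separate animals, so p-values measure the spread between these libraries only. Values are FPKM (read fragments divided by transcript length and by library size), which allows levels of different genes to be set side by side.

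In the division cycle, D-type cyclins with CDK4 or CDK6, and cyclin E or A with CDK2, phosphorylate the RB proteins and so release the E2F factors that switch on genes of DNA replication. The CIP/KIP inhibitors (p21 from CDKN1A, p27 from CDKN1B, p57 from CDKN1C) bind cyclin-CDK complexes, while the INK4 inhibitors (p16 from CDKN2A, p15 from CDKN2B, p18 from CDKN2C) bind CDK4 and CDK6 alone. GADD45 proteins bind PCNA, CDK1 and the kinase MAP3K4, and are induced by stress. Myoblasts leave the cycle for good when they become myotubes, and p21, p57, p27 and p18 are the inhibitors best known from that step.

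Marker genes followed the labelled states. All 7 myotube markers rose, from a summed 54.7 to 154 FPKM in undifferentiated libraries to 12867 to 18878 FPKM in differentiated ones. ACTA1, CKM and TNNC2 had undifferentiated means of 0.650, 0.0304 and 0.384 FPKM. They could reach the mean of 1 FPKM needed for a test only through the differentiated libraries. The direction of their calls was therefore fixed in advance. All 5 proliferation markers that had a row, of 6 listed, fell. Of 4 satellite cell markers only 2, MYOD1 and PAX3, had a row by name. MYOD1 alone reached the level for a test, and it fell. Fibroblast markers summed to 113 to 333 FPKM and 442 to 1174 FPKM in the undifferentiated and differentiated libraries, with 3 of 6 tested members higher and 3 not called. All 4 tested smooth muscle and pericyte markers rose, a list that includes DES, which muscle cells also make, while MYH11 reached at most a mean of 0.0469 FPKM in either state. CNN1, at a mean of 0.247 FPKM in undifferentiated libraries, likewise reached the test only through the differentiated ones, which fixed its direction. Endothelial markers (4 of 5 had a row) summed to 2.25 to 7.53 FPKM over all libraries, and adipocyte markers (3 of 5 had a row) to at most 1.69 FPKM. Immune markers were lower after differentiation, at 12.06 to 17.1 FPKM and then 3.17 to 5.40 FPKM, with LYZ at 0 throughout. Their 1 tested member, CD14, fell (log2 -2.24, limma adjusted p = 9.12e-05). Schwann markers likewise went from 4.30 to 7.21 FPKM to 2.34 to 3.68 FPKM, and their 1 tested member, S100B, fell (log2 -1.02, limma adjusted p = 0.0187) but was not called without differentiated male replicate 1. Estimated depth relative to the shallowest library was 1.67 to 2.27 in undifferentiated and 1 to 1.63 in differentiated libraries. The part of depth or of the fibroblast, smooth muscle, immune or Schwann markers in the results that follow was not tested. In bulk cultures, fewer cells that make a transcript and less of it per cell cannot be told apart.

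All 6 measured genes changed between the states, 3 upward and 3 downward. CDKN1B, GADD45B and GADD45G rose, and the 3 CDKN2 genes fell. For each of them the 4 differentiated libraries lay wholly on 1 side of the 4 undifferentiated ones. Among the 12963 genes tested, 18.0% rose and 31.9% fell by the same test, 50.0% in all. Libraries did not overlap between states for 47.3% of genes, with the differentiated ones higher for 17.1% and lower for 30.2%. Changed genes were therefore common in these cultures. All 6 genes had a mean above the filter of 1 FPKM in each state, so none entered the test through 1 state alone. Their median log2 difference was -0.33, beside -0.18 over all tested genes.

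**Figure D1:**
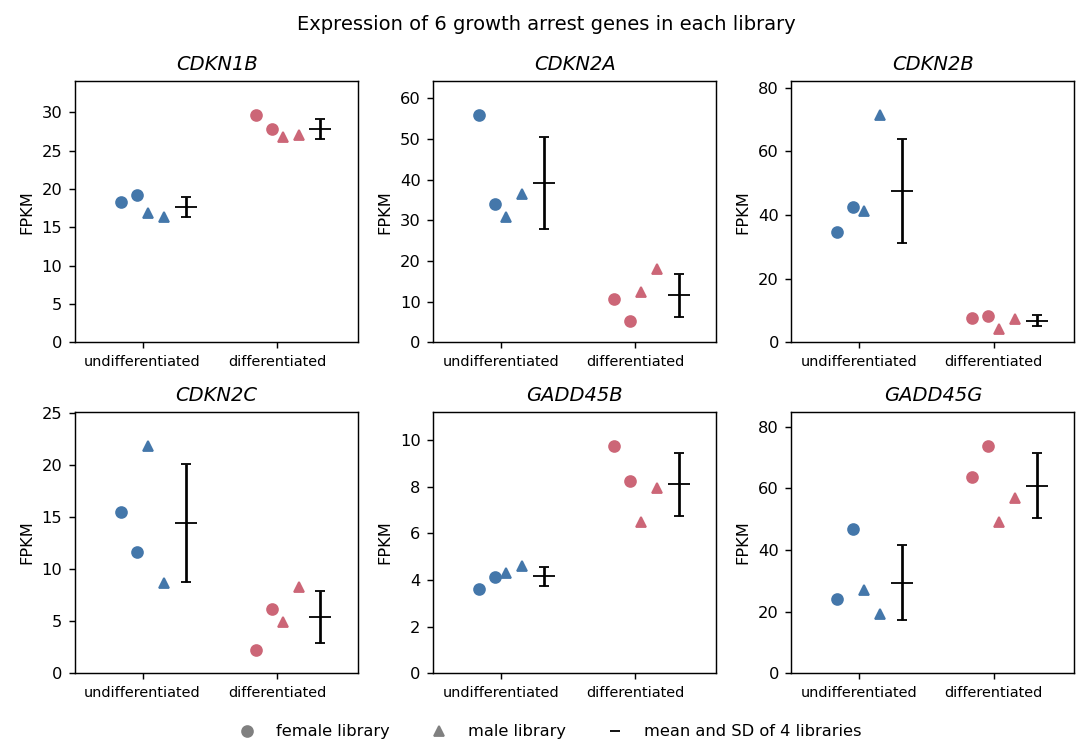
FPKM (linear axes from 0) of the 6 genes in each of the 8 libraries, circles for female and triangles for male libraries, with the mean and SD of the 4 libraries of each state as a black bar. CDKN1B, GADD45B and GADD45G are higher in all 4 differentiated libraries, and CDKN2A, CDKN2B and CDKN2C are lower in all 4.

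CDKN1B encodes p27, which holds cyclin E-CDK2 inactive in resting cells. Its row (ENSSSCG00000027140) lies on the unplaced scaffold GL896456.1, 60363 to 64021, plus strand, of Sscrofa10.2. Undifferentiated cells held 18.3 and 19.2 FPKM in the female libraries and 16.9 and 16.3 FPKM in the male ones. Differentiated cells held 29.7 and 27.8 FPKM in females and 26.8 and 27.03 FPKM in males. The libraries of a state were close together, with a coefficient of variation of 7.38% and 4.68%, and a wide gap separated the states. Mean CDKN1B was 17.7 ± 1.30 FPKM before and 27.8 ± 1.30 FPKM after differentiation (SD, n = 4), a rise of 1.57 times. On the log2(FPKM + 1) scale the difference was 0.63 ± 0.0751 (SE), with a 95% interval of 0.44 to 0.81 (limma adjusted p = 0.00113). This was the smallest and the most evenly measured change of the 6.

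The CDKN2 genes moved the other way. CDKN2B encodes p15, which blocks CDK4 and CDK6 and is known as a target of TGF-beta signalling. It lies on chromosome 1, 223956057 to 223958921, plus strand (ENSSSCG00000005132). In undifferentiated cells it was at 34.6 and 42.5 FPKM in females and at 41.4 and 71.4 FPKM in males. In differentiated cells it was at 7.75 and 8.25 FPKM in females and at 4.15 and 7.17 FPKM in males. The lowest undifferentiated library was thus far above the highest differentiated one. CDKN2B fell from 47.5 ± 16.3 to 6.83 ± 1.84 FPKM (SD, n = 4), so that undifferentiated cells held 6.95 times as much. The log2 difference was -2.61 ± 0.228 (SE), with an interval of -3.17 to -2.06 (limma adjusted p = 0.000379). Only 1.54% of all tested genes had a log2 difference as low or lower.

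CDKN2A is its neighbour, 30929 bp away on the minus strand of chromosome 1, 223989851 to 223992651 (ENSSSCG00000005134). In mammals this locus makes p16 and, from another reading frame, ARF. The table describes the row by a p14ARF mRNA and gives 1 value, so the products cannot be told apart here. Undifferentiated libraries held 55.8 and 33.9 FPKM in females and 30.8 and 36.4 FPKM in males. Differentiated libraries held 10.6 and 5.23 FPKM in females and 12.2 and 18.0 FPKM in males. Undifferentiated female replicate 1 stood highest of its state, and the differentiated libraries varied over a wide range. CDKN2A fell from 39.2 ± 11.3 to 11.5 ± 5.26 FPKM (SD, n = 4), with a log2 difference of -1.75 ± 0.268 (SE) and an interval of -2.41 to -1.10 (limma adjusted p = 0.00281).

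CDKN2C encodes p18, the INK4 inhibitor usually tied to muscle differentiation. It lies on chromosome 6, 148745573 to 148750281, plus strand (ENSSSCG00000003876). Undifferentiated cells held 15.5 and 11.7 FPKM in females and 21.9 and 8.72 FPKM in males, and differentiated cells 2.22 and 6.21 FPKM in females and 4.96 and 8.26 FPKM in males. The states barely missed each other, with undifferentiated male replicate 2 just above differentiated male replicate 2. CDKN2C fell from 14.4 ± 5.68 to 5.41 ± 2.53 FPKM (SD, n = 4), with a log2 difference of -1.30 ± 0.384 (SE) and an interval of -2.23 to -0.36 (limma adjusted p = 0.0324). This call was the weakest of the 6. It ended under median-ratio scaling (limma adjusted p = 0.0582), where those male libraries overlapped at 8.16 and 8.60 scaled FPKM, and under quantile normalization (0.0574). It also ended when any 1 of 6 libraries was left out (limma adjusted p = 0.0552 to 0.104), the exceptions being undifferentiated male replicate 2 and differentiated female replicate 2. Its log2 difference lay between -1.60 and -0.99 in the fits without 1 library.

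The GADD45 genes rose. GADD45G, on chromosome 14, 1421135 to 1422690, plus strand (ENSSSCG00000009585), was at 24.0 and 46.9 FPKM in undifferentiated females and at 27.2 and 19.2 FPKM in undifferentiated males. In differentiated cells it was at 63.9 and 73.8 FPKM in females and at 49.2 and 56.9 FPKM in males. Undifferentiated female replicate 2 came close to differentiated male replicate 1, and the other libraries were well apart. GADD45G rose from 29.3 ± 12.14 to 60.9 ± 10.5 FPKM (SD, n = 4), 2.08 times as high, with a log2 difference of 1.09 ± 0.231 (SE) and an interval of 0.53 to 1.65 (limma adjusted p = 0.00967).

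GADD45B, on chromosome 2, 76659058 to 76661492, minus strand (ENSSSCG00000022689), is known as an early response gene of TGF-beta and NF-kappaB signalling. Undifferentiated cells held 3.62 and 4.14 FPKM in females and 4.31 and 4.59 FPKM in males. Differentiated cells held 9.76 and 8.25 FPKM in females and 6.47 and 7.96 FPKM in males. Its level was low but even, and every differentiated library lay above every undifferentiated one. GADD45B rose from 4.16 ± 0.410 to 8.11 ± 1.35 FPKM (SD, n = 4), 1.95 times as high, with a log2 difference of 0.81 ± 0.119 (SE) and an interval of 0.52 to 1.10 (limma adjusted p = 0.00237).

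An exact two-sided permutation test over the 8 libraries gave p = 0.0286 for each of the 6 genes, which is the smallest value that 4 against 4 libraries allow. Lack of overlap between states fixes this value, so it adds nothing to that result, which 47.3% of all tested genes share. The splits ignored sex and replicate number. Median-ratio scaling, which raised the median log2 difference of all tested genes by 0.184, gave log2 differences of 0.83 for CDKN1B, 0.99 for GADD45B and 1.30 for GADD45G, and of -2.42 for CDKN2B, -1.56 for CDKN2A and -1.11 for CDKN2C. The directions of the 6 genes were thus the same under that scaling, while the split of all called genes moved from 63.9% falling to 49.0% falling.

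Differentiated male replicate 1 stood apart in its proliferation markers, which summed to 64.3 FPKM against 15.5 to 21.9 FPKM in the other differentiated libraries, and in its fibroblast markers (1174 FPKM against 442 to 833 FPKM). Of the 6 genes, 4 had their lowest differentiated value in that library: CDKN1B, CDKN2B, GADD45B and GADD45G. The share of all tested genes with their lowest differentiated value there was not computed, so this count is not a result about the 6. Without that library the 6 genes kept their directions, and the log2 difference of CDKN2C was -1.14.

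The order of the 6 transcripts differed between states. In undifferentiated cells CDKN2B was the most abundant (mean 47.5 FPKM), followed by CDKN2A, GADD45G, CDKN1B, CDKN2C and GADD45B. The ranges of CDKN2B and CDKN2A overlapped, as did those of CDKN2A and GADD45G and those of CDKN1B and CDKN2C. In differentiated cells GADD45G led (mean 60.9 FPKM) with CDKN1B next, each above the following gene in all 4 libraries with no overlap. CDKN2A, GADD45B, CDKN2B and CDKN2C came after them, and each overlapped its neighbour in this order.

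Summed over CDKN1B and the 3 CDKN2 genes, inhibitor transcripts stood at 119 ± 11.9 FPKM in undifferentiated and at 51.6 ± 6.03 FPKM in differentiated cells (SD, n = 4). CDKN1B made up 15.0% ± 2.31 of that sum in undifferentiated libraries, with a range of 12.3% to 17.9%. In differentiated libraries it made up 54.5% ± 6.69, from 44.7% in male replicate 2 to 59.0% in female replicate 1. CDKN2B went from 39.6% ± 10.7 to 13.3% ± 3.87 of the sum. The share of CDKN2A was 32.9% ± 8.22 and 21.8% ± 8.04, and that of CDKN2C 12.4% ± 5.47 and 10.4% ± 4.22, with ranges that overlapped between states. CDKN1A, CDKN1C and the INK4 inhibitor CDKN2D are not part of this sum. Mean CDKN2D was 6.27 FPKM in undifferentiated and 5.81 FPKM in differentiated cells, so counting it would lower the CDKN1B share. The CDKN2A row is counted whole, though p16 and ARF cannot be told apart in it. The GADD45G to GADD45B ratio was 7.11 ± 3.01 and 7.56 ± 1.02 in the undifferentiated and differentiated state, a difference smaller than the spread between libraries.

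**Figure D2:**
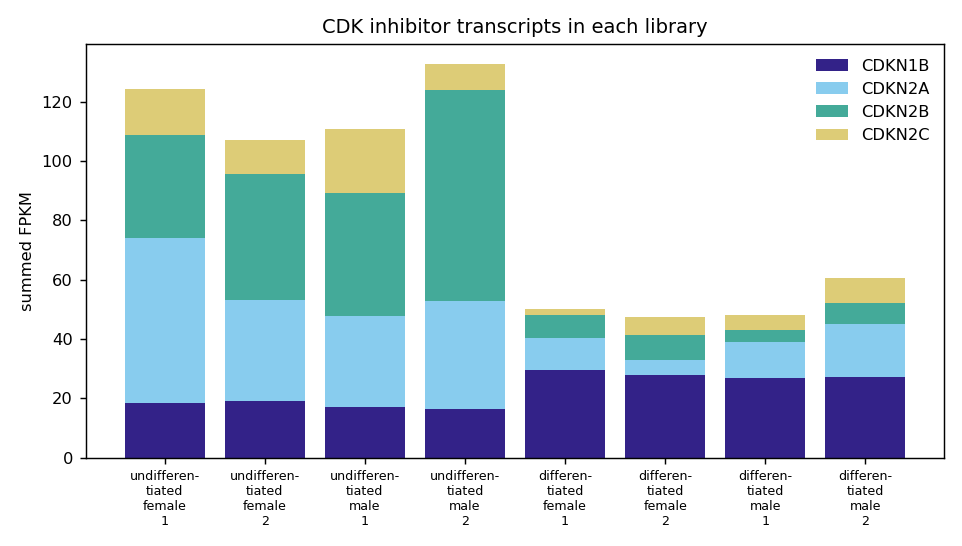
Stacked bars of FPKM (linear axis from 0) of the CDK inhibitors CDKN1B, CDKN2A, CDKN2B and CDKN2C in each of the 8 libraries. The total is 107 to 133 FPKM in the undifferentiated and 47.5 to 60.5 FPKM in the differentiated libraries, and the CDKN1B segment is the largest in each differentiated bar.

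Within each sex the states were compared over 2 libraries each, and 4 of the 6 genes were called in females and 4 in males, 2 rising and 2 falling in females and 3 rising and 1 falling in males. Of all tested genes 35.8% were called in females (12.5% rose, 23.3% fell) and 33.0% in males (12.9% rose, 20.1% fell). CDKN1B rose by a log2 of 0.59 in females and 0.66 in males (limma adjusted p = 0.00813 and 0.00652). The female call ended without undifferentiated female replicate 1 (limma adjusted p = 0.0503). CDKN2B fell in both sexes, with log2 differences of -2.13 and -3.09 (limma adjusted p = 0.00447 and 0.00169). CDKN2A fell in females (log2 -2.39, limma adjusted p = 0.00531) and had a log2 difference of -1.12 in males that was not called (limma adjusted p = 0.0673). With sex and replicate number as a block that male difference was called (limma adjusted p = 0.0139). The differences of CDKN2C, -1.59 and -1.005, were called in neither sex (limma adjusted p = 0.0655 and 0.204). With genes above 100000 FPKM left out the female one was called (limma adjusted p = 0.0495).

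GADD45B rose in females (log2 1.03, limma adjusted p = 0.00573) and in males (log2 0.59, limma adjusted p = 0.0417). The male call of GADD45B ended with the replicate block (limma adjusted p = 0.0797) and without any 1 of the 8 libraries (0.0506 to 0.158). It also ended with no filter on low values (0.0821), with a minimum mean of 5 FPKM (0.0565) and with genes above 100000 FPKM left out (0.0513). GADD45G rose in males (log2 1.18, limma adjusted p = 0.0378). Leaving out any 1 of 6 libraries ended this call (0.0658 to 0.170), the exceptions being the undifferentiated female replicates. In females the GADD45G difference of 1.01 was not called (limma adjusted p = 0.0559), and without undifferentiated female replicate 2 it was 1.48 (limma adjusted p = 0.0207).

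Whether the change with state differed between the sexes was tested directly as an interaction. None of the 6 genes was called by limma, and 0 of 6 had an unadjusted p under 0.05. CDKN2A had the largest difference, with the male change 1.27 ± 0.537 (SE) less negative than the female one (95% interval -0.04 to 2.58, limma adjusted p = 0.808). For CDKN2B the male change was the larger fall, by a difference of -0.97 with an interval of -2.08 to 0.14 (limma adjusted p = 0.815). For CDKN1B the interval was the narrowest, -0.29 to 0.44. Of all tested genes 0.0231%, or 3, were called for this difference, and 782 had an unadjusted p under 0.05. With the replicate block limma called 0 genes, and 831 had an unadjusted p under 0.05.

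**Figure D3:**
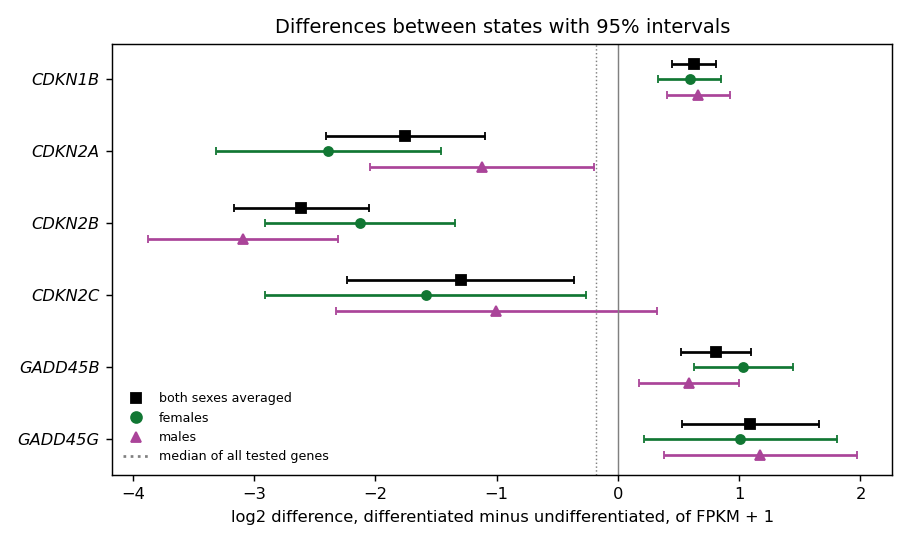
Log2 difference of FPKM + 1 between differentiated and undifferentiated cells (horizontal axis) for the 6 genes, averaged over sexes (squares), in females (circles) and in males (triangles), with 95% intervals from limma and the median of all tested genes as a dotted line. The male and female intervals overlap for every gene, and the averaged intervals of CDKN2A, CDKN2B and CDKN2C lie below 0 while those of the other genes lie above it.

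Genes with the most similar profile were sought by Pearson's r of log2(FPKM + 1) over the 8 libraries, which is given as a description because the libraries fall into 2 states and many genes share that step. CDKN1B was most like FZD2 (r = 0.997), a Wnt receptor, and MYOG (r = 0.996), the myogenic factor myogenin. CDKN2B was most like ARPC1B (r = 0.998), a subunit of the actin-branching Arp2/3 complex, and the ribosomal protein gene RPL23 (r = 0.994). CDKN2A was nearest to POLR1B (r = 0.99), a subunit of RNA polymerase I, and SYTL5 (r = 0.987). CDKN2C had its best matches in WASHC5 (r = 0.973) and CEP57 (r = 0.969), the lowest of the 6. GADD45B was nearest to TRAF4 (r = 0.992) and CRELD1 (r = 0.991), and GADD45G to the plasminogen activator PLAT and the receptor NOTCH3 (r = 0.98 each).

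The remaining inhibitor of the INK4 family, CDKN2D (p19), was not called. Its mean was 6.27 ± 1.75 FPKM before and 5.81 ± 2.02 FPKM after differentiation (SD, n = 4; log2 -0.11, limma adjusted p = 0.72). CDKN3, a phosphatase that acts on CDK2 and carries a similar name, was at 13.0 ± 1.91 and 14.4 ± 2.80 FPKM (log2 0.13, limma adjusted p = 0.416).

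The cyclins and kinases that the inhibitors act on fell widely. Of 10 tested members 8 fell, none rose and 2 (CCND3 and CDK2) were not called. CCNE2, 1 of those that fell, had a differentiated mean of 0.810 FPKM. It could pass the filter of 1 FPKM only through the undifferentiated libraries, so the direction of its call was fixed in advance. The median log2 difference of this list was -1.78, beside -0.18 for all tested genes, of which 18.0% rose and 31.9% fell. Among all tested genes, median-ratio scaling moved the number that rose from 2339 to 3128, and quantile normalization moved it to 2699. More rises in a list under these rescalings are therefore not particular to that list. CCND1, a D-type cyclin, and CCNA2, cyclin A2, fell the most, with log2 differences of -4.53 and -2.99 (limma adjusted p = 4.05e-05 and 0.000917). CCNA2 and CCNB1 are also among the proliferation markers above, so their falls repeat that check. Under either rescaling, or without differentiated male replicate 1, 7 of the 10 fell. CDK4 and CDK6, the kinases that INK4 proteins bind, were singled out after their values were seen. CDK4 fell from 27.2 ± 1.71 to 8.57 ± 0.734 FPKM, and CDK6 from 212 ± 3.98 to 103 ± 23.0 FPKM (SD, n = 4; limma adjusted p = 8.05e-05 and 0.000446). The summed FPKM of CDKN2A, CDKN2B and CDKN2C, without CDKN2D, was divided by the summed CDK4 and CDK6 FPKM. This ratio was 0.424 ± 0.0549 before differentiation and 0.211 ± 0.0209 after it, with no overlap between states (0.365 to 0.483 against 0.185 to 0.235).

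In the RB and E2F list 1 of 11 tested members rose, 7 fell and 3 were not called (6 falls under either rescaling), with a median of -0.73. Of all tested genes 18.0% rose and 31.9% fell. The member that rose was RB1, the pocket protein that holds E2F inactive, from 15.2 ± 0.892 to 24.9 ± 3.03 FPKM (SD, n = 4; log2 0.67, limma adjusted p = 0.00137). E2F8 (log2 -2.08) and E2F1 (log2 -2.06) fell the most (limma adjusted p = 0.00103 and 0.00259).

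The ubiquitin ligase that marks p27 for destruction consists of SKP2 with its helper CKS1B and the core subunits. Of 5 tested genes of p27 turnover, 1 rose, 1 fell and 3 were not called, with a median of 0.19. Beside these counts stand 18.0% rising and 31.9% falling among all tested genes. SKP2 rose from 21.1 ± 2.01 to 31.3 ± 4.23 FPKM (SD, n = 4; log2 0.54, limma adjusted p = 0.00361) and CKS1B fell from 40.7 ± 9.48 to 15.4 ± 6.08 FPKM (log2 -1.41, limma adjusted p = 0.0143). The CKS1B call ended without undifferentiated female replicate 1, undifferentiated male replicate 1 or differentiated female replicate 2 (limma adjusted p = 0.0532 to 0.055). Under either rescaling 3 genes of this list rose and 1 fell.

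Among 7 tested partners of the GADD45 proteins none rose, 3 fell and 4 were not called, with a median of -0.44. The shares over all tested genes were 18.0% rising and 31.9% falling. PCNA, the sliding clamp of DNA replication, fell from 106 ± 23.5 to 21.9 ± 9.17 FPKM, and MAP3K4, the kinase upstream of p38 and JNK that GADD45 proteins activate, from 13.1 ± 1.90 to 7.35 ± 1.58 FPKM (SD, n = 4; log2 -2.27 and -0.76, limma adjusted p = 0.000942 and 0.0068). Under median-ratio scaling 1 member rose and 3 fell.

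Of 19 tested transcription factors known to act on these inhibitor and GADD45 genes, 7 rose, 8 fell and 4 were not called, with a median of -0.13. Among all tested genes 18.0% rose and 31.9% fell. MEF2C (log2 7.22) and MYOG (log2 4.07), both factors of the muscle program, rose the most (limma adjusted p = 6.64e-06 and 0.000106). Both are also among the myotube markers above, and MYOD1 of this list is a satellite cell marker, so their calls repeat that check. MYC, a repressor of CDKN2B in other cells, fell from 161 ± 30.1 to 45.3 ± 7.45 FPKM (SD, n = 4; log2 -1.80, limma adjusted p = 0.000479), as did the stress factor ATF4 (log2 -1.53, limma adjusted p = 0.000392). Under median-ratio scaling 7 rose and 7 fell.

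The Polycomb list covers genes that silence CDKN2A in proliferating cells and the demethylases that oppose them. Of 9 tested, 1 rose, 2 fell and 6 were not called, with a median of -0.21. Calls were thus no more common here than among all tested genes, of which 18.0% rose and 31.9% fell. The methyltransferase EZH2 fell from 18.4 ± 4.38 to 5.90 ± 0.942 FPKM (SD, n = 4; log2 -1.48, limma adjusted p = 0.0015), and its partner SUZ12 from 19.97 ± 0.959 to 13.2 ± 2.46 FPKM (log2 -0.57, limma adjusted p = 0.00398). KDM6B, a demethylase of the same histone mark, rose from 1.91 ± 0.413 to 5.29 ± 0.554 FPKM (log2 1.12, limma adjusted p = 0.00193). Under either rescaling 2 members rose and 2 fell.

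Of 5 tested genes that lie beside the 9 in mammals, 1 rose, 1 fell and 3 were not called, with a median of -0.05. Over all tested genes 18.0% rose and 31.9% fell. MTAP, an enzyme of methionine salvage on chromosome 1 (224075140 to 224115226), on the same stretch as CDKN2B and CDKN2A, fell from 51.9 ± 4.68 to 17.4 ± 5.60 FPKM (SD, n = 4; log2 -1.57, limma adjusted p = 0.000283). SLC22A18, a transporter gene near CDKN1C in mammals, was listed at 0 in each undifferentiated library. After differentiation it stood at 2.15 ± 0.730 FPKM (SD, n = 4; limma adjusted p = 0.00377). It could pass the filter of 1 FPKM only through the differentiated libraries, so the direction of its call was fixed in advance.

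**Figure D4:**
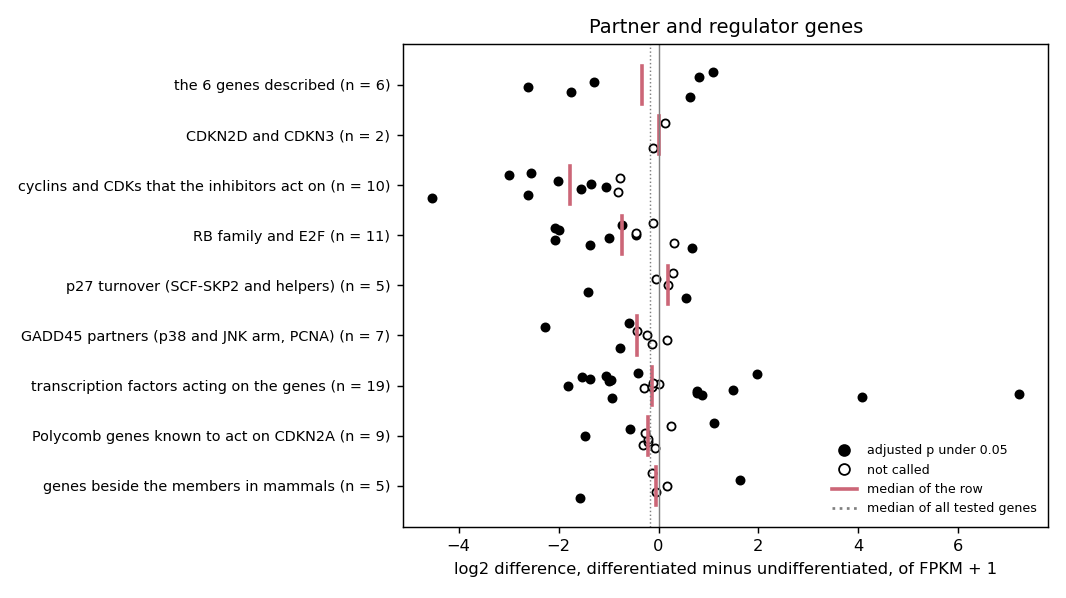
Log2 difference of FPKM + 1 between differentiated and undifferentiated cells (horizontal axis) for the 6 genes and for each tested gene of 8 partner and regulator lists, filled where the limma adjusted p was under 0.05, with red lines at each row's median and a dotted line at the median of all tested genes. The cyclins and CDKs lie at -4.53 to -0.77, all below 0, while the transcription factors spread to both sides.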

How the data were processed

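The authors deposited 1 table of FPKM per gene, with 1 column per library, per the file headers. Cutadapt 1.6, TopHat2 2.0.12.1, Cufflinks 2.2.1 and the build Sscrofa10.2 are named, per the submitters' processing notes, with no settings. Per the labels' protocols, a stranded low-input kit for total RNA was used with 100-bp paired ends, while the molecule is labelled polyA RNA. Whole reads were not recovered, so depth in reads is unknown. Relative depth came from 3444 genes with low values.

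Columns were matched to samples by title. Values were taken as log2(FPKM + 1), and the 12963 genes whose mean reached 1 FPKM were tested with limma 3.58.1 in R 4.3.3 (1 mean per group of state and sex, mean-variance trend, 4 residual and 2.09 prior degrees of freedom). This scale understates changes of low genes. P-values are two-sided, with Benjamini-Hochberg adjustment across every tested gene, and 0.05 was the threshold for "rose" and "fell". On simulated data for the comparison of states over 12963 genes, 60% of changes of log2 size 1 and 82% of size 2 were recovered. Only 100 genes were changed at each size, all drawn from genes above a set level, while 50.0% of genes were called in the data. These shares therefore do not give the recovery in the data themselves.

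Same-numbered libraries of a sex deviated together from their state means (r = 0.121, 0.183, 0.174 and 0.142 for the 4 pairs). The numbers were therefore used as a block in an alternative fit. The labels do not say what the numbers mark. Unless the block is named, reported values come from the fit without it, and their standard errors leave this pairing out. With the block all 6 genes were still called between states, CDKN2C at a limma adjusted p of 0.0475 (0.0324 without it).

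List genes were matched by the table's symbol or an Ensembl identifier table, which named 132 of the 151 entries. 1 of the lists is not reported here. From each list up to 2 called genes that rose most and up to 2 that fell most were named, and for each of the 6 genes the 2 most similar profiles. Alternatives were another pseudocount, other filters, 2 rescalings, no trend, high values left out, the replicate block, each library left out and, for the 6 genes, a fit with no term for sex. The genes and lists were chosen with earlier results of these data known. No protein or promoter sequence was used here.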

Additional observations from a re-analysis of the deposited data

Results flagged for a closer look

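In 28 genes, the 6 described and those that the naming rule picks from all lists, the 1 not reported here included, the 4 libraries of each state were checked for 1 value far from the other 3, by whether its gap to the nearest exceeded 0.829 of the range. None of the 6 CDK inhibitor and GADD45 genes had such a library. It was met in 4 of 56 groups, where chance gives about 1 in 20. CCNA2 stood at 11.0 FPKM in differentiated male replicate 1, with 2.76 to 3.33 FPKM in the other differentiated libraries. PCNA stood at 35.5 FPKM in the same library, against 15.7 to 19.1 FPKM. BAX, an effector of apoptosis, stood at 39.0 FPKM in undifferentiated female replicate 1, against 28.3 to 29.9 FPKM in the other undifferentiated libraries. MTAP stood at 58.9 FPKM there, against 49.2 to 50.1 FPKM. The calls of these 4 genes held without each of these libraries.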

How the results depend on the processing

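The differences between states averaged over the sexes kept their direction for all 6 genes under each of 18 alternatives. The calls of CDKN1B, CDKN2A, CDKN2B, GADD45B and GADD45G held in all 18, with the highest limma adjusted p at 0.0399 for GADD45G, while that of CDKN2C ended in 8 (highest 0.104). Each symbol had 1 row, so summing rows changed nothing. Without 1 library 5 or 6 of the 6 genes were called, and 5217 to 5991 of all tested genes. Leaving 1 library out gave 2549 to 4608 called genes within females, 2381 to 4052 within males and 7 to 25 for the difference between the sexes, where a group of 1 library is assumed to vary like the others. That last count, 3 in the main setting, was 6 with no filter, 7 after quantile normalization, 6 without the trend and 0 with the replicate block. The cause was not tested. Of all called genes 63.9% fell, and 49.0% after median-ratio scaling. The replicate block changed no call of the 6 genes other than those of CDKN2A and GADD45B within males. Within females GADD45G was also called after median-ratio scaling (limma adjusted p = 0.0296), after quantile normalization (0.0461) or with genes above 100000 FPKM left out (0.0408), and within males it was not called with no filter (0.0547). Depth in reads is unknown, so counting error could not be given, and it bears most on low values such as those of GADD45B.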
